A study of Mus musculus with 11 samples.

Results

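The genes of oxidative phosphorylation were followed in RNA-seq libraries of Tmem119+ microglia, which had been sorted from cerebral tissue of old mice on the C57BL/6 background. The nuclear genes were the protein-coding genes named as subunits of, or factors for, complexes I to V, and the mitochondrial genes were all protein-coding genes of the mitochondrial chromosome. Of 90 nuclear name matches, 1 (Uqcrq) lay in a segment of chromosome 11 that was left out (49200000 to 59300000). The remaining 89 nuclear genes and 13 mitochondrial genes gave 102 members, out of 14739 genes in the table and 13223 genes tested. All 102 had a mean value of at least 10 and entered the tests.

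The groups were Csf1r_het (Csf1r+/-, 3 libraries), Csf2het (Csf2+/-, 3 libraries), Dhet (Csf1r+/-; Csf2+/-, 2 libraries) and WT (wild type, 3 libraries). All mice were 21 months old except Csf1r_het 1 (20 months), Csf1r_het 2 and Dhet 2 (both 24 months). The comparisons ask what the loss of a copy of the CSF-1 receptor gene, of the gene for the cytokine CSF-2, or of both does to microglia. The labels give neither the sex nor the design of the alleles, and they do not say whether each library came from a separate mouse. The p-values below therefore measure the spread between these libraries, which may be partly technical.

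Oxidative phosphorylation passes electrons from NADH (through complex I) and succinate (through complex II) to coenzyme Q, then through complex III and cytochrome c to complex IV, which reduces oxygen. Complexes I, III and IV pump protons across the inner mitochondrial membrane, and complex V, the ATP synthase, uses the gradient to make ATP. Most subunits are encoded in the nucleus and imported, while mitochondrial DNA encodes the hydrophobic core of every complex except complex II. Subunits therefore come from separate genomes and must be made in balance. In microglia, a shift between oxidative phosphorylation and glycolysis is known to accompany changes of activation state.

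The nuclear members held 36 nuclear subunits of complex I (7 core and 29 accessory), 4 of complex II, 8 of complex III, 15 of complex IV and 15 of complex V. The other 11 nuclear members were 9 assembly factors of complex I, Cox7a2l (a supercomplex factor) and Atp5s (coupling factor B). Some complex IV subunits exist as isoforms from separate genes, of which Cox8b, Cox7a1 and Cox6a2 are the striated-muscle types and Cox8a, Cox7a2 and Cox6a1 the ubiquitous ones. Because Cox8b was the only member past the test in any of the comparisons, the sequences around the RefSeq start sites of 2 muscle-type and 2 ubiquitous isoform genes are shown (mouse build GRCm38.p6, gene strand, from 250 bases before the start to 30 bases after it). Capitals mark matches to 4 short motifs searched on both strands. The core of the NRF-1 site was searched as GCGCATGC. The ETS element, which NRF-2 binds, was searched as CCGGAAG. The YY1 element was searched as AAGATGGC. The TATA box was searched as TATAAA.
Cox8b, chr7:140900417-140900696, minus strand: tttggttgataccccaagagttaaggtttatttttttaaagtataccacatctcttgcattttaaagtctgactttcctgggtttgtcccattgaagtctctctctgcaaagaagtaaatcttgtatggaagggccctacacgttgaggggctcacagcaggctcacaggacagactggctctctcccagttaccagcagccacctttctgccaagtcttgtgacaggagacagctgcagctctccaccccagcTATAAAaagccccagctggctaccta
Cox7a1, chr7:30183921-30184200, plus strand: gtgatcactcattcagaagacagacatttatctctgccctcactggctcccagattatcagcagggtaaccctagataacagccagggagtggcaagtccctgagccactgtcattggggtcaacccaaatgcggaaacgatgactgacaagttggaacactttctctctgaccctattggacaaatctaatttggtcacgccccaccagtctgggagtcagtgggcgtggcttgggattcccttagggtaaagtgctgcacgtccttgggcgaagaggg
Cox8a, chr19:7217587-7217866, minus strand: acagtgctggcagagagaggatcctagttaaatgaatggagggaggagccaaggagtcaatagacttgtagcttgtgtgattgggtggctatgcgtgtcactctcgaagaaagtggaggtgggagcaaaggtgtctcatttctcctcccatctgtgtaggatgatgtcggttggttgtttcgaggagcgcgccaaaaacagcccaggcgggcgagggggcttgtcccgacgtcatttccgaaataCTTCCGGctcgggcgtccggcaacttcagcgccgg
Cox6a1, chr5:115348929-115349208, minus strand: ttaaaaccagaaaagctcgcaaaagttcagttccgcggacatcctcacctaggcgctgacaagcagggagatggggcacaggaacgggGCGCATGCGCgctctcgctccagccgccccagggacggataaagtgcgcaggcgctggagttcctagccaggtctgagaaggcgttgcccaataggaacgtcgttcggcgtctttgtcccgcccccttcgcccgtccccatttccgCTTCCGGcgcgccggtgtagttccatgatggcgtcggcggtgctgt

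In these windows the Cox8b sequence held the letters TATAAA just after the start, and the Cox7a1 sequence held none of the 4 motifs. The Cox8a sequence held the ETS motif on the opposite strand. The Cox6a1 sequence held the NRF-1 core on both strands, overlapping, and the ETS motif on the opposite strand. A promoter of 300 bases (50 after the start) was found for 76 of the 89 nuclear members. The NRF-1 core occurred in 12 of these 76 (15.8%), against 2.8% of 27025 RefSeq promoters of the same length. The ETS motif occurred in 17 (22.4%, against 9.12%), the YY1 motif in 11 (14.5%, against 2.88%) and the letters TATAAA in 6 (7.89%, against 14.2%). Of the isoform genes not shown, the ubiquitous Cox7a2 held none of the 4 motifs in its promoter, and no promoter was found for Cox6a2. A match describes letters in a window and does not show that a factor binds there.

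The values, called normalized counts, were gene counts scaled by the authors with 1 size factor per library, from 21037819 to 53081638 reads a library. Csf1r, the gene of the targeted receptor, had 17017, 40567 and 24022 normalized counts in Csf1r_het, 53873, 58211 and 66762 in Csf2het, 40151 and 30254 in Dhet, and 93319, 41261 and 63538 in WT. Every library of the Csf1r_het and Dhet groups lay below every WT library, but the differences did not pass the test. With limma the log2 fold change was -1.29 (SE 0.45) for Csf1r_het, with an adjusted p of 0.184, and -0.84 (SE 0.50) for Dhet, with an adjusted p of 0.589. Csf2 was not analysed here. Haemoglobin genes took 16.1% to 58.8% of all normalized counts. WT 2 stood apart from the other libraries: the microglial surface gene Tmem119 was at 5432 normalized counts (15711 to 31939 elsewhere), 8 homeostatic microglia genes summed to 95975 (184093 to 494118 elsewhere) and 8 monocyte genes to 236068 (13002 to 98141 elsewhere). Mitochondrial ribosomal RNA, which is not among the members, summed to 2121530 in WT 2 (138117 to 1084930 elsewhere). Dhet 2 stood apart in the sex-linked genes, with Ddx3y at 717 normalized counts (at most 16.3 elsewhere) and Xist at 4.02 (at least 3011 elsewhere). This is a male pattern, against a female pattern in the other libraries. Dhet 2, from a 24-month mouse, is 1 of 2 Dhet libraries, so comparisons with Dhet mix genotype with this difference. In Csf1r_het 2, 15.6% of genes were at 0, against 4.98% to 9.88% in the other libraries.

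Markers of other cell types also varied between the libraries. The 8 choroid plexus genes, all in the table and none at 0 in all libraries, summed to 816042 to 1457360 normalized counts in Csf1r_het and 779043 to 1128970 in Csf2het. Their sums were 238784 and 466738 in Dhet, and 295299 to 634627 in WT. Ttr, the transthyretin gene, made up 95.71% of this sum, so it is in effect a level of Ttr. In this sum Dhet 1, WT 1, WT 3 and Dhet 2 were the lowest libraries, as they were in nuclear members, and WT 2 ranked 5 from the lowest but highest in nuclear members. The other 7 genes summed to 34081 to 54034 in Csf1r_het, 25114 to 48933 in Csf2het, 12645 and 28437 in Dhet, and 7065 to 28488 in WT, where WT 2 was the lowest library and Csf2het 3 lay below Dhet 2 and 2 of the WT libraries. Of 8 genes in each of these lists, Csf1r_het had 1 choroid plexus gene called higher than WT and 1 monocyte gene lower (1.32% of genes tested). In Csf2het, 7 monocyte genes were called lower and 3 homeostatic microglia genes higher than in WT (3.65%). All 5 neuron and all 7 astrocyte markers tested were positive against WT in Csf1r_het, Csf2het and Dhet, with none called. Their medians were 2.37, 1.01 and 0.98 for neurons and 0.95, 1.31 and 1.44 for astrocytes. In the same order, 7, 5 and 4 of 8 erythroid, 3, 3 and 5 of 5 oligodendrocyte and 2, 1 and 1 of 4 endothelium markers were positive. The monocyte genes summed to 49275 to 63124 in Csf1r_het, 13002 to 20697 in Csf2het, 64040 and 71999 in Dhet, and 75806 to 236068 in WT. The part of these cell types, of WT 2 and of sex in the results below was not tested, beyond the values given with and without WT 2 and with the marker level as a covariate. In bulk samples, fewer cells of a type and less RNA per cell cannot be told apart.

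The summed nuclear members reached 626505, 572041 and 692800 normalized counts in Csf1r_het and 551329, 501888 and 713850 in Csf2het. They reached 295245 and 370372 in Dhet, and 318748, 1084540 and 294783 in WT. All 6 single-heterozygote libraries lay above both Dhet libraries, and WT split into 2 libraries at the Dhet level and WT 2 above all others. The mean was 630450 ± 60480 in Csf1r_het, 589020 ± 110900 in Csf2het (SD, n = 3 each), 332810 ± 53120 in Dhet (SD, n = 2) and 566020 ± 449200 in WT (SD, n = 3). WT 2 was the highest of the 11 libraries for 52 of the 89 nuclear members, against 17.5% of all genes tested. It was also the lowest for 12 of them.

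The mitochondrial members were spread differently. Their sums were 2088670, 5098960 and 3192510 normalized counts in Csf1r_het, 6595760, 2116170 and 5967560 in Csf2het, 4417020 and 1371950 in Dhet, and 1517560, 2529840 and 1999280 in WT. The libraries of the 4 groups overlapped, and Dhet 1 lay above all WT libraries and Dhet 2 below them. The ratio of the mitochondrial to the nuclear sum was 3.33, 8.91 and 4.61 in Csf1r_het, 11.96, 4.22 and 8.36 in Csf2het, 14.96 and 3.70 in Dhet, and 4.76, 2.33 and 6.78 in WT. The lowest ratio was in WT 2 and the highest in Dhet 1, and all groups overlapped.

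**Figure D1:**
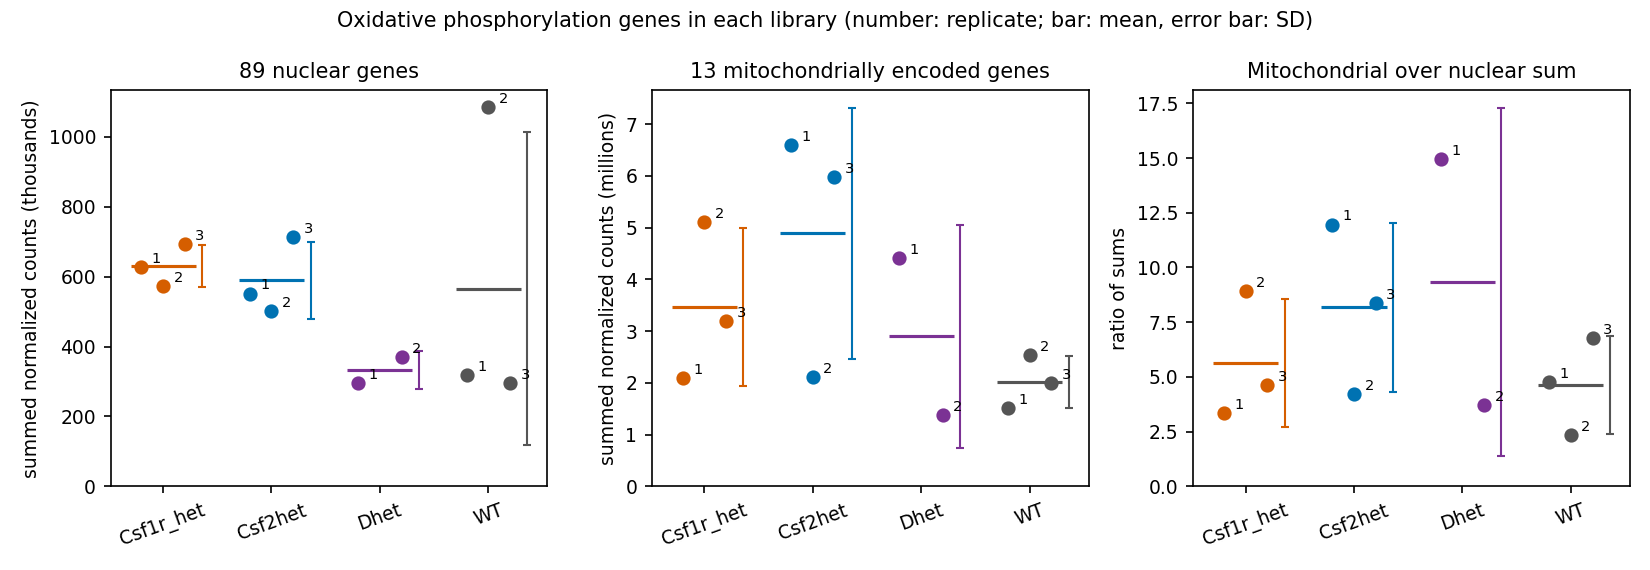
Summed normalized counts of the 89 nuclear members and the 13 mitochondrially encoded members, and their ratio, in each of 11 libraries (points numbered by replicate, bars the group mean, error bars the SD). The nuclear sums of Csf1r_het and Csf2het lie between 501888 and 713850, above both Dhet libraries (295245 and 370372), while WT 2 (1084540) lies apart from WT 1 and WT 3.

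**Figure D2:**
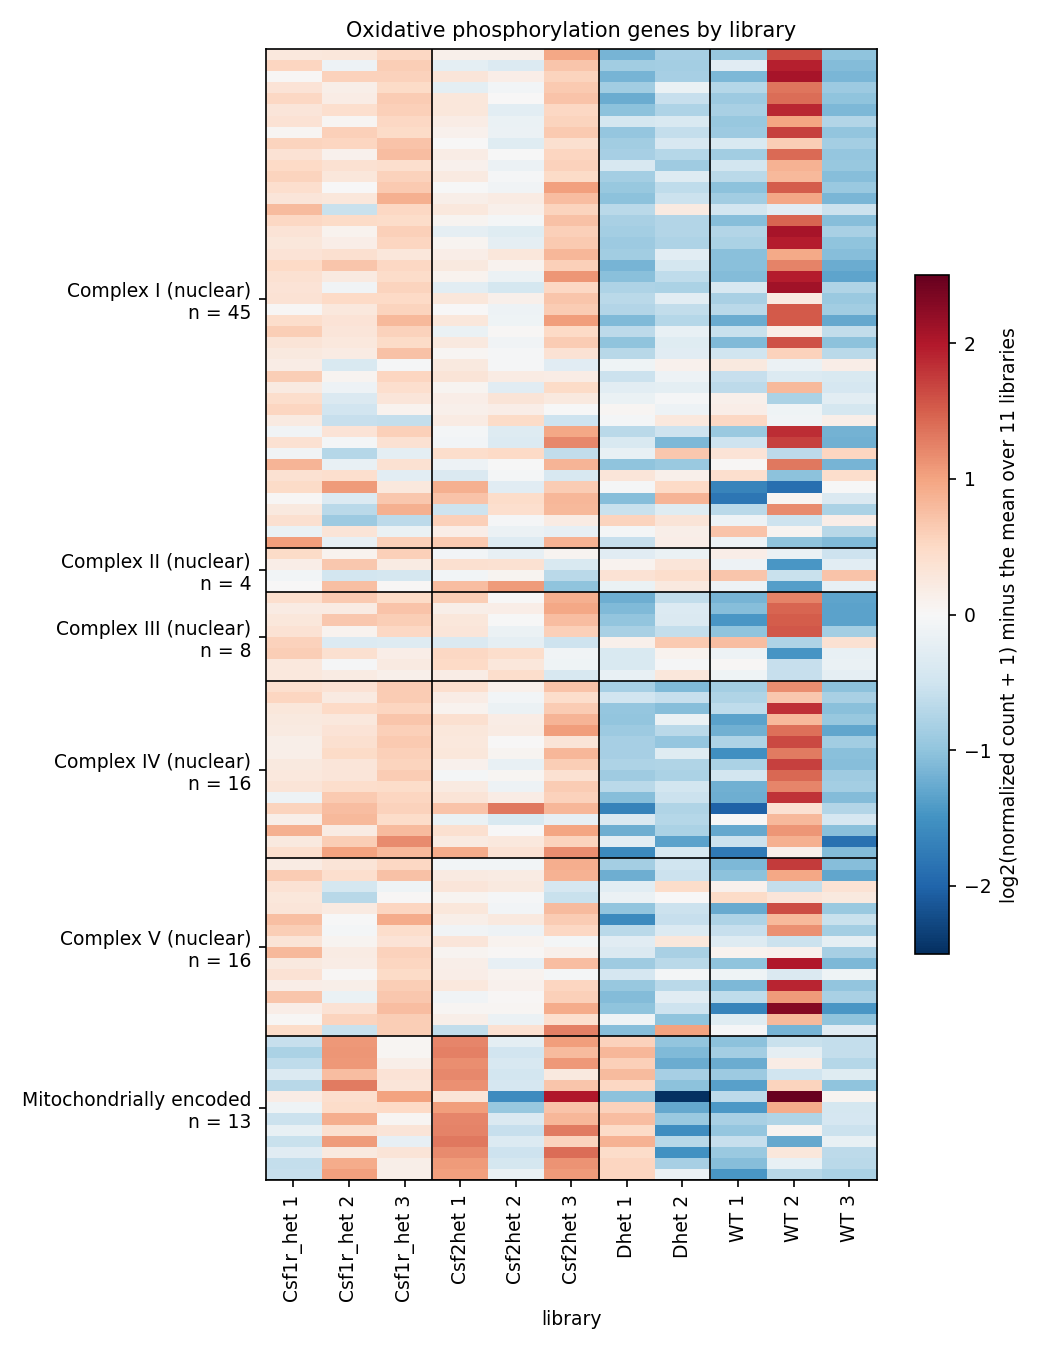
Each member's log2(normalized count + 1) minus its mean over the 11 libraries, with 1 row a gene, grouped by complex, and 1 column a library. Most nuclear rows are high in the Csf1r_het and Csf2het columns and in WT 2 and low in Dhet, WT 1 and WT 3, whereas the mitochondrially encoded rows are highest in Csf2het 1 and Csf2het 3.

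In both single heterozygotes, most members had higher means than in WT, but none passed the test. Relative to WT, 91 of 102 members had a positive log2 fold change in Csf1r_het (44.4% of all genes did) and 90 of 102 in Csf2het (48.8% of all genes). With edgeR on the recovered reads, 70 and 65 of 102 were positive. The median log2 fold change of the nuclear members was 0.54 in Csf1r_het and 0.42 in Csf2het (0.20 and 0.12 with edgeR), against -0.12 and -0.02 for all genes. With limma on log2(normalized count + 1) and Benjamini-Hochberg adjustment at 0.05, 0 of 102 members were called in Csf1r_het (1.32% of genes tested) and 0 of 102 in Csf2het (3.65% of genes tested). At an unadjusted p under 0.05 there were 12 members in Csf1r_het (16.2% of genes tested) and 8 in Csf2het (17.3% of genes tested). The edgeR test called 0 members in both (0.73% and 3.34% of genes tested). DESeq2 gave an adjusted p for 90 members and called 1 in Csf1r_het (Ndufs3, with 6.58% of genes called) and 2 in Csf2het (mt-Atp8 and mt-Nd1, with 9.24%). All libraries lay above all WT libraries for 14 members in Csf1r_het (8.61% of genes tested) and 12 in Csf2het (11% of genes tested).

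These counts rest on WT 2. It has the highest nuclear sum, and leaving it out, as each of the 11 libraries was left out in turn, lowers the WT level and its spread for most members. Without it, 44 members were called higher in Csf1r_het (3.32% of genes tested were called, 1.53% higher) and 36 in Csf2het (3.83% called, 1.26% higher), all of them nuclear genes. No member was called lower. Of the 44, 20 were among the 36 nuclear subunits of complex I, 4 among 8 of complex III, 14 among 15 of complex IV and 6 among 15 of complex V. Of the 36, 15 belonged to complex I, 4 to complex III, 11 to complex IV and 6 to complex V, and no subunit of complex II was called in either group. Libraries did not overlap with WT 1 and WT 3, and were higher, for 80 of 102 members in Csf1r_het (17.8% of genes tested) and 73 in Csf2het (19.3%), and both Dhet libraries were higher for 26 (19.5%) and lower for 6 (19.9%). Leaving out any other single library called at most 1 member in these 2 comparisons. The part of transcript length in the calls without WT 2 was not tested.

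**Figure D3:**
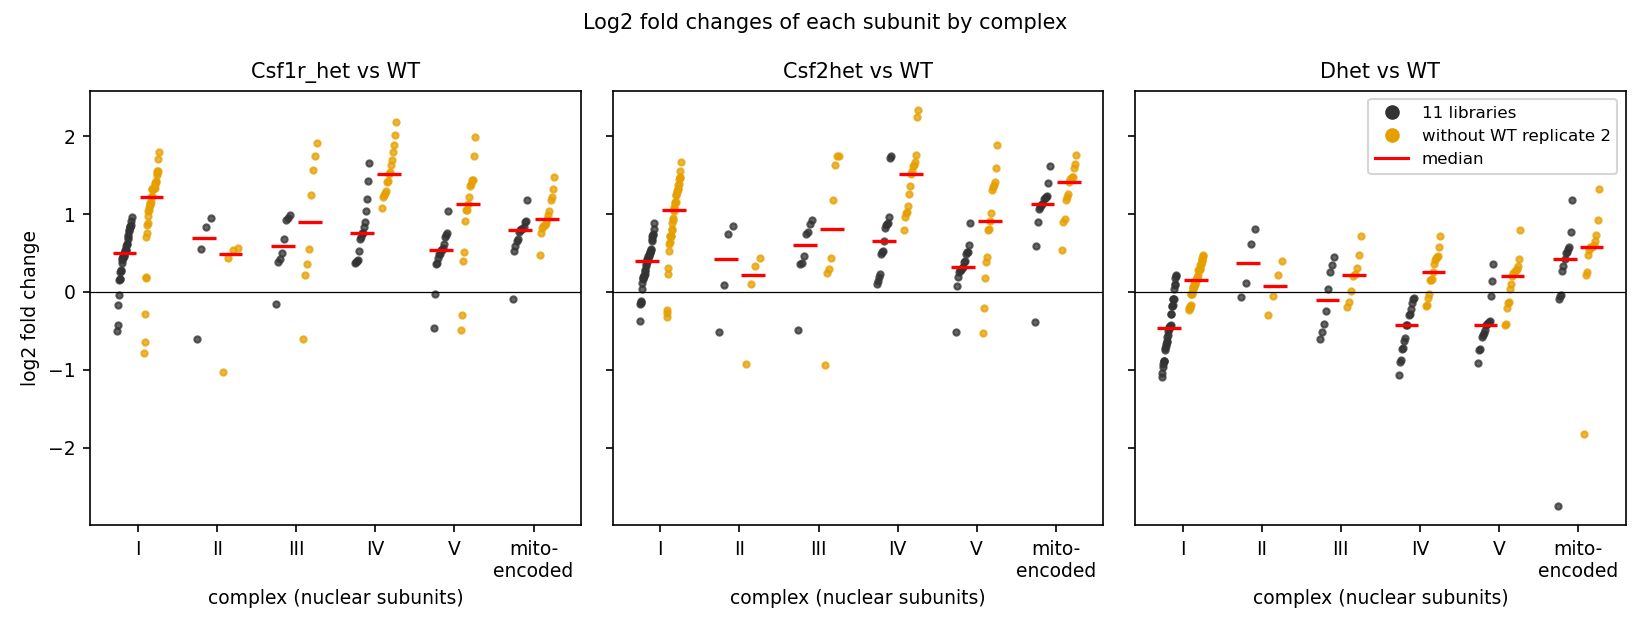
Log2 fold change against WT of each nuclear subunit by complex and of each mitochondrially encoded gene, in Csf1r_het, Csf2het and Dhet (points are genes, red lines medians), from all 11 libraries and without WT replicate 2. The complex IV median is 0.76 in Csf1r_het, 0.66 in Csf2het and -0.43 in Dhet with all libraries, and 1.51, 1.51 and 0.26 without WT 2.

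Complex I, the NADH dehydrogenase, is the largest complex. Its 36 nuclear subunits had a median log2 fold change against WT of 0.50 in Csf1r_het (32 positive) and 0.39 in Csf2het (31 positive), and edgeR left 21 and 20 of them positive. In WT 2 the mean deviation of the 29 accessory subunits from their means over all libraries was 1.27 on the log2 scale, while that of the 7 core subunits, which carry the redox centres and the pump, was 0.0016. Both sets held values of either sign, from -0.65 (Ndufs1) to 0.88 (Ndufs7) for core and from -0.80 (Ndufa9) to 2.09 (Ndufa6) for accessory subunits. Ndufab1, the mitochondrial acyl carrier protein, had the highest fold change in both groups. It was at 4655, 5121 and 5140 normalized counts in Csf1r_het, 4445, 3988 and 5907 in Csf2het, and 2074, 4246 and 1905 in WT. All Csf1r_het libraries exceeded all WT libraries, and Csf2het 2 fell below WT 2 (log2 fold change 0.96, SE 0.33, adjusted p = 0.179 in Csf1r_het and 0.88, SE 0.33, adjusted p = 0.176 in Csf2het). Ndufs3, a core subunit, was at 3836, 2642 and 3650 normalized counts in Csf1r_het, 3138, 2905 and 2871 in Csf2het, and 1679, 1990 and 1924 in WT, with no overlap between either group and WT. Its log2 fold changes, 0.84 (SE 0.26, adjusted p = 0.142) and 0.67 (SE 0.26, adjusted p = 0.192), did not pass the test. The lowest values belonged to Ndufv1, the core subunit that binds NADH, in Csf1r_het (-0.50, SE 0.34) and to the accessory subunit Ndufa6 in Csf2het (-0.37, SE 0.58).

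The 3 nuclear subunits of complex I with the highest mean values, Ndufa1, Ndufa13 and Ndufa3, are small accessory subunits. Ndufa1 was at 14316, 14654 and 17236 normalized counts in Csf1r_het, 13084, 13139 and 23558 in Csf2het, and 6209, 37341 and 5943 in WT. WT 2 was the highest library for all 3 genes, and the log2 fold changes against WT ranged from -0.16 (Ndufa13 in Csf2het) to 0.52 (Ndufa1 in Csf2het).

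Complex II, succinate dehydrogenase, is the complex with no mitochondrially encoded subunit, and the mean deviation of its 4 subunits was -0.88 in WT 2, with 0.15 and -0.07 in WT 1 and WT 3. The catalytic flavoprotein Sdha was at 3923, 3000 and 3038 normalized counts in Csf1r_het, 3921, 4314 and 2592 in Csf2het, and 6671, 2804 and 6756 in WT. WT 1 and WT 3 lay above all single-heterozygote libraries and WT 2 among them (log2 fold change -0.61, SE 0.36, adjusted p = 0.425 in Csf1r_het and -0.51, SE 0.36, adjusted p = 0.52 in Csf2het). The membrane anchor Sdhd had the highest fold change of the complex in Csf1r_het (0.95, SE 0.37, adjusted p = 0.232), and the other anchor, Sdhc, in Csf2het (0.85, SE 0.51, adjusted p = 0.437). The iron-sulphur subunit Sdhb, with the highest mean value of the 4, differed by 0.55 (SE 0.27) in Csf1r_het and 0.09 (SE 0.27) in Csf2het.

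In complex III, which passes electrons from coenzyme Q to cytochrome c, WT 2 was the highest library for some subunits and the lowest for others. Uqcr11, Uqcrb and Uqcr10, the 3 subunits with the highest mean values, were each highest in WT 2. Uqcr11 was at 13668, 15918 and 14100 normalized counts in Csf1r_het, 15667, 10258 and 18864 in Csf2het, and 4555, 24124 and 4094 in WT. All single-heterozygote libraries lay between WT 2 and the pair WT 1 and WT 3, and the log2 fold changes were 0.92 (SE 0.55) in both groups. Cyc1, cytochrome c1, had 6212, 5382 and 4595 normalized counts in Csf1r_het, 5817, 5532 and 3811 in Csf2het, and 3727, 1473 and 3596 in WT. WT 2 was the lowest library here, and neither single-heterozygote group overlapped with WT, yet the differences did not pass the test (log2 fold change 0.99, SE 0.36, adjusted p = 0.211 in Csf1r_het and 0.88, SE 0.36, adjusted p = 0.23 in Csf2het). Uqcrc1, a core protein related to the mitochondrial processing peptidase, had the lowest fold changes of the complex (-0.16, SE 0.40, in Csf1r_het and -0.49, SE 0.40, in Csf2het).

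Complex IV, cytochrome c oxidase, had the highest nuclear median in both comparisons. All 15 nuclear subunits had a positive log2 fold change against WT in Csf1r_het (median 0.76) and in Csf2het (median 0.66), though edgeR left 11 and 10 of 15 positive. Of the subunits with the highest mean values, Cox8a was at 26236, 25274 and 30319 normalized counts in Csf1r_het, 26203, 21420 and 32015 in Csf2het, and 10827, 43716 and 9671 in WT. Cox4i1, the largest nuclear subunit and a regulatory one, was at 27604, 22269 and 29636 in Csf1r_het, 21663, 18145 and 26024 in Csf2het, and 11377, 30279 and 10824 in WT. For both genes WT 2 was the highest library and WT 1 and WT 3 lay below all single heterozygotes (log2 fold changes from 0.49 to 0.76, adjusted p from 0.364 to 0.595).

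The muscle-type isoform genes Cox8b and Cox7a1 had the 2 highest fold changes of all nuclear subunits against WT in both single heterozygotes. Cox8b was at 5495, 6358 and 5549 normalized counts in Csf1r_het, 6123, 9255 and 6627 in Csf2het, 1165 and 2192 in Dhet, and 916, 4854 and 2235 in WT. Each single-heterozygote library exceeded every WT and Dhet library, including WT 2. The log2 fold change against WT was 1.43 (SE 0.48, adjusted p = 0.176) in Csf1r_het and 1.75 (SE 0.48, adjusted p = 0.0676) in Csf2het. Cox7a1, at lower counts, was at 454, 683 and 595 in Csf1r_het, 645, 432 and 760 in Csf2het, 111 and 258 in Dhet, and 98.3, 370 and 159 in WT, again with no overlap between the single heterozygotes and the other groups. Its log2 fold change against WT was 1.66 (SE 0.54, adjusted p = 0.166) in Csf1r_het and 1.72 (SE 0.54, adjusted p = 0.109) in Csf2het. Cox6a2 overlapped with WT in both groups (log2 fold changes 1.19, SE 0.60, and 0.86, SE 0.60). Without WT 2, Cox8b and Cox7a1 passed the test in both groups (Cox8b 2.02, adjusted p = 0.0217 in Csf1r_het and 2.33, adjusted p = 0.00668 in Csf2het), while Cox6a2 did not.

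The ubiquitous partners of these isoforms had lower fold changes. Cox6a1 differed from WT by 0.39 (SE 0.58) in Csf1r_het and 0.14 (SE 0.58) in Csf2het on the log2 scale, Cox7a2 by 0.68 and 0.51 (SE 0.50), and Cox8a by 0.71 and 0.66 (SE 0.49). Of the subunit VIb genes, the ubiquitous Cox6b1 differed by 0.39 and 0.19 (SE 0.53) and Cox6b2, the testis type, by 1.04 and 0.87 (SE 0.54). None of these passed the test, and the differences between isoforms were not tested. Ndufa4, first assigned to complex I and now to complex IV, differed by 0.89 and 0.96 (SE 0.49), and the supercomplex factor Cox7a2l by 0.34 and -0.38 (SE 0.33). Cox4i2 and Ndufa4l2 were not analysed here.

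**Figure D4:**
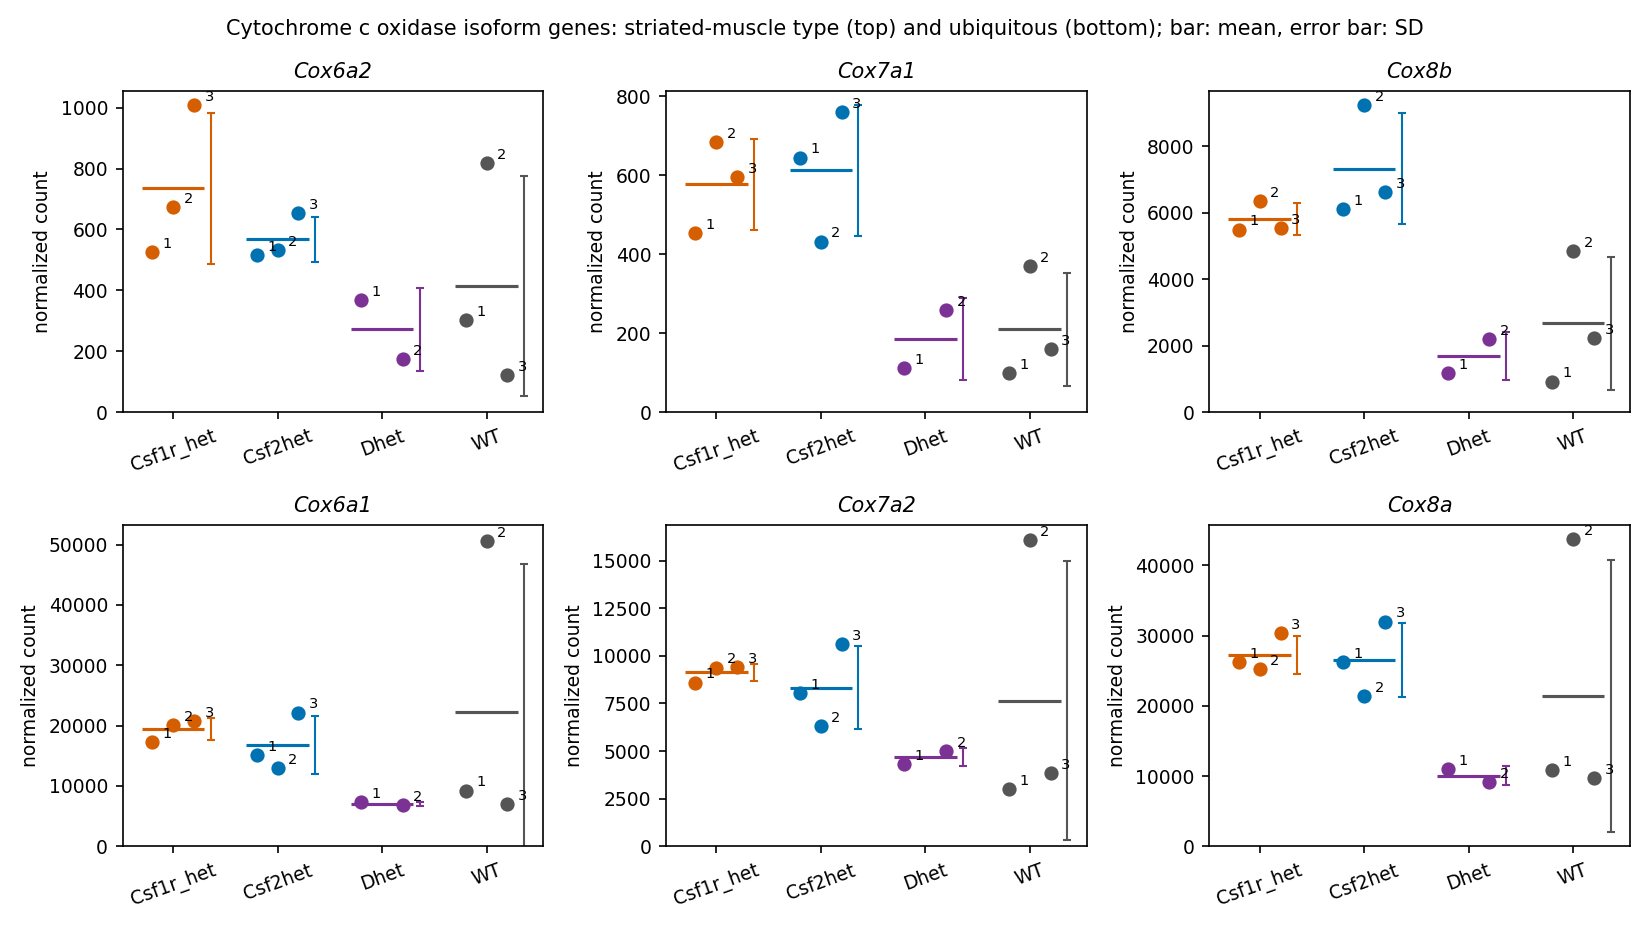
Normalized counts of the striated-muscle isoform genes Cox8b, Cox7a1 and Cox6a2 (top) and of their ubiquitous counterparts (bottom) in each library (points numbered by replicate, bars the mean, error bars the SD, each vertical axis from 0). Cox8b is at 5495 to 9255 in the 6 single-heterozygote libraries and at 916 to 4854 in Dhet and WT, while WT 2 is the highest library for the ubiquitous genes.

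In complex V, the 15 nuclear subunits had median log2 fold changes against WT of 0.54 in Csf1r_het and 0.32 in Csf2het (13 and 14 positive, 9 and 8 with edgeR). Without WT 3 the Csf2het median was -0.03. The c ring, the rotor of the enzyme, is made of identical subunits encoded by Atp5g1, Atp5g2 and Atp5g3, which differ in their import sequences. Atp5g1 was at 23657, 20520 and 25302 normalized counts in Csf1r_het, 18001, 17540 and 28131 in Csf2het, and 7549, 30074 and 6256 in WT, with WT 2 above the single heterozygotes and WT 1 and WT 3 below them. It had the highest fold change of the complex in both groups (1.04, SE 0.51, adjusted p = 0.334 in Csf1r_het and 0.88, SE 0.51, adjusted p = 0.413 in Csf2het). Atp5g2 (0.57 and 0.31, SE 0.43) and Atp5g3 (0.73 and 0.52, SE 0.44) lay closer to WT. Atp5a1, the alpha subunit of the catalytic head, had the lowest fold changes (-0.47 in Csf1r_het and -0.51 in Csf2het, SE 0.32). It was at 11971, 11315 and 7825 normalized counts in Csf2het, all below 16016, 14240 and 13525 in WT, but did not pass the test (adjusted p = 0.459). Atp5b, the catalytic beta subunit, differed by -0.02 in Csf1r_het and 0.08 in Csf2het (SE 0.38). Atp5j, a peripheral stalk subunit with the highest mean value of the complex, was at 52799 in WT 2 and at 7260 to 29480 in WT and the single heterozygotes otherwise.

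In Dhet, no member passed the test against WT. Of 102 log2 fold changes, 31 were positive (50.9% of all genes; 47 members with equal totals), and the median was -0.41 for the nuclear and 0.43 for the mitochondrial members, against 0.02 for all genes. Both medians depend on the processing. The nuclear one was -0.73 with edgeR, -0.13 when libraries were scaled to equal totals without haemoglobin and mitochondrial genes (which moved the median of all genes to 0.30) and 0.16 without WT 2. The mitochondrial one was -0.43 without Dhet 1 and 1.19 without Dhet 2. With limma 0 of 102 members were called (0.529% of genes tested), 3 had an unadjusted p under 0.05 (10.1% of genes tested), edgeR called 0 (0.19%) and DESeq2 called 1 of 90 (mt-Nd3, with 2.75% of genes called). Both Dhet libraries lay above all WT libraries for 3 members (13.5% of genes tested) and below them for 3 (12.6% of genes tested). Without WT 2, 0 members were called (0.25% of genes tested).

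By complex, the Dhet medians against WT were -0.46 for complex I, 0.37 for complex II, -0.11 for complex III, -0.43 for complex IV and -0.43 for complex V. All 15 nuclear subunits of complex IV had negative values, though 4 turned positive with equal totals and 11 without WT 2. Cox6a1 was the lowest (-1.07, SE 0.65, adjusted p = 0.594), at 7297 and 6797 normalized counts in Dhet, and 9212, 50627 and 6940 in WT. WT 2 was far above the other libraries, and Dhet 1 lay between WT 1 and WT 3. Ndufa6 had the lowest value of complex I (-1.09, SE 0.65, adjusted p = 0.591), Atp5g3 of complex V (-0.91, SE 0.49, adjusted p = 0.564), the hinge protein Uqcrh of complex III (-0.60, SE 0.60) and Sdhb of complex II (-0.06, SE 0.30). The highest values were those of the membrane anchor Sdhd (0.81, SE 0.41, adjusted p = 0.533), Cyc1 (0.45, SE 0.41), Atp5f1, the b subunit of the stator stalk (0.36, SE 0.30), Ndufa9 (0.21, SE 0.35) and Ndufa4 (-0.08, SE 0.54). Sdhd was at 4463 and 5182 normalized counts in Dhet, above 3849, 1539 and 3492 in WT.

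In the comparison of Dhet with each single heterozygote, WT enters the estimate of the spread but not the fold change. Nuclear members were lower in Dhet by a median log2 fold change of -1.01 against Csf1r_het and -0.84 against Csf2het, while the median of all genes was 0.10 and 0.03. With limma 0 of 102 members were called against Csf1r_het (0.00756% of genes tested) and 0 against Csf2het (0.0227% of genes tested). Log2 fold changes were positive for 10 of 102 members against Csf1r_het (54.5% of all genes) and 11 against Csf2het (51.6% of all genes). At an unadjusted p under 0.05 there were 26 members against Csf1r_het (10.5% of genes tested) and 11 against Csf2het (8.19% of genes tested). Without WT 2 these were 66 (16% of genes tested) and 58 (11.4%), and with the libraries of the compared groups alone 65 (12.2%) and 54 (11.4%). In these 2 comparisons edgeR called 0 members (0.0146% and 0.0219% of genes tested), and DESeq2 called 0 of 90 against Csf1r_het (0.899%) and 1 of 90 (Cox8b) against Csf2het (1.31%). Leaving out any single library called none.

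Many members nonetheless did not overlap between these groups. Both Dhet libraries lay below all Csf1r_het libraries for 67 of 102 members (14.4% of genes tested), of which 66 were nuclear, and below all Csf2het libraries for 60 (12.9%), all nuclear. For complex IV this held for 15 of 15 nuclear subunits against each group. It held for 30 and 29 of 36 nuclear subunits of complex I, 12 and 10 of 15 of complex V, 5 and 4 of 8 of complex III, and 1 and 0 of 4 of complex II. The complex IV medians were -1.24 against Csf1r_het and -1.15 against Csf2het, and stayed between -1.06 and -2.02 under the other scalings, tests and covariates. Of the nuclear members, the largest difference was that of Cox8b, at 1165 and 2192 normalized counts in Dhet, against 5495, 6358 and 5549 in Csf1r_het (log2 fold change -1.86, SE 0.54, adjusted p = 0.421) and 6123, 9255 and 6627 in Csf2het (-2.17, SE 0.54, adjusted p = 0.279). The Ttr-led choroid plexus sum was also lower in both Dhet libraries than in every single-heterozygote library, while gene by gene both Dhet libraries lay below all Csf1r_het libraries for 5 of the 8 markers and below all Csf2het libraries for 3. With the mean log2 level of these markers as a covariate, 5 members were called against Csf1r_het (1.36% of genes tested) and 1 against Csf2het (0.439%). All 8 monocyte markers had positive log2 fold changes in Dhet against Csf2het (median 2.33), and 1 of them was called (0.0227% of genes tested). The part of these markers in the results was not tested further.

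A few members went the other way. Sdha was at 5284 and 5620 normalized counts in Dhet, above all Csf1r_het (3000 to 3923) and all Csf2het libraries (2592 to 4314), with log2 fold changes of 0.73 (SE 0.40, adjusted p = 0.5) and 0.63 (SE 0.40, adjusted p = 0.727). Uqcrc1 was at 5427 and 7735 in Dhet, above 3877, 4260 and 3453 in Csf2het (0.75, SE 0.44, adjusted p = 0.707), but overlapped with Csf1r_het. Of the core subunits of complex I, 3 of 7 had positive values against each group, whereas all 29 accessory subunits were negative.

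The interaction asks whether the effect of losing a Csf2 copy differs between mice with and without the loss of a Csf1r copy. Its log2 value was negative for 92 of 102 members (positive for 54.2% of all genes), with a median of -1.42 for the nuclear and -1.62 for the mitochondrial members (0.15 for all genes). With limma 1 of 102 members passed the test (1.85% of genes tested), and 30 had an unadjusted p under 0.05 (18% of genes tested). The member called was Cox8b (-3.60, SE 0.73, 95% interval -5.17 to -2.03, adjusted p = 0.0269), and Cox7a1 came next (-3.47, SE 0.82, adjusted p = 0.0508). In the Cox8b counts given above, all 6 single-heterozygote libraries lay above all Dhet and WT libraries. The same counts gave the interaction, so this order is not further support. The Cox8b call was lost with edgeR (adjusted p = 0.0603), with only the libraries from 21-month mice (0.201), with a replicate block (0.0519), and when Csf1r_het 1, Csf1r_het 3, any of the Csf2het libraries or Dhet 1 was left out (0.0635 to 0.136). It was not lost without WT 1, WT 2, WT 3, Csf1r_het 2 or Dhet 2. Without WT 2, 57 members were called, 56 lower and 1 (Sdha, 1.65, adjusted p = 0.0242) higher (6.78% of genes tested were called, 3.19% lower and 3.58% higher), among them 15 of 15 nuclear subunits of complex IV, 28 of 36 of complex I, 9 of 15 of complex V and 4 of 8 of complex III. With the choroid plexus marker level as a covariate, 33 members were called (5.75% of genes tested). Marker genes were called in the interaction too: 5 of 8 monocyte genes were called positive (all 8 positive, median 3.45) and 1 of 8 choroid plexus genes negative (7 of 8 negative, median -1.91), while 0 of 8 homeostatic microglia genes were called (all negative, median -1.26), and their part in the members' values was not tested. In the F test over the 4 groups, 0 members were called (1.94% of genes tested), with the lowest adjusted p of 0.0845 for Cox8b, 10 had an unadjusted p under 0.05 (14.5% of genes tested), and without WT 2 39 were called (2.93%).

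The 13 mitochondrially encoded members are cut from long transcripts of the mitochondrial genome, so their levels share a source, and 0 of 13 passed the test in any comparison. Their median log2 fold change against WT was 0.79 in Csf1r_het, 1.14 in Csf2het and 0.43 in Dhet, and 12, 12 and 9 of 13 were positive. The difference between the mitochondrial and the nuclear median was 0.26 in Csf1r_het, 0.71 in Csf2het and 0.84 in Dhet. It was -0.28 in Csf1r_het without WT 2, and -0.24 and 1.74 in Dhet without Dhet 1 and without Dhet 2, so that no common difference between the nuclear and mitochondrial genes was detectable with these libraries. By complex, the medians of the mitochondrially encoded genes in Csf1r_het, Csf2het and Dhet were 0.79, 1.07 and 0.34 for the 7 genes of complex I. They were 0.66, 1.14 and -0.06 for the 3 genes of complex IV, and mt-Cytb of complex III was at 0.80, 1.22 and 0.58. Against Csf1r_het and Csf2het, all 13 genes had negative log2 fold changes in Dhet (medians -0.39 and -0.73). When libraries were scaled to equal totals, 2 of 13 were positive against Csf1r_het (median -0.23), and with the libraries of 21-month mice alone 12 of 13 were positive against Csf1r_het (median 0.39) and 6 of 13 against Csf2het (median -0.02).

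The cytochrome c oxidase gene mt-Co1 was at 253161, 778004 and 324197 normalized counts in Csf1r_het, 936922, 292846 and 552601 in Csf2het, 684929 and 232087 in Dhet, and 250962, 154775 and 328504 in WT. Csf2het 1 was the highest library and WT 2 the lowest, and the groups overlapped (log2 fold changes against WT 0.77, 1.19 and 0.77, SE 0.95, 0.95 and 1.06). The other oxidase genes mt-Co2 and mt-Co3 had log2 fold changes against WT of 0.53 to 1.14 in the single heterozygotes and of -0.10 and -0.06 in Dhet. The ATP synthase gene mt-Atp6 differed by 0.80, 1.23 and 0.50 in Csf1r_het, Csf2het and Dhet. Among the complex I genes, mt-Nd1, mt-Nd2, mt-Nd4, mt-Nd4l, mt-Nd5 and mt-Nd6 differed by 0.59 to 0.91 in Csf1r_het, 0.59 to 1.39 in Csf2het and -0.04 to 0.55 in Dhet. mt-Nd6 is encoded on the other strand from its neighbour mt-Nd5 and overlaps its end (positions 13552 to 13565 of the mitochondrial chromosome). The sources used here do not give whether counting used strand, so reads of that stretch cannot be told apart.

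The spread of mt-Nd3 was the widest. mt-Nd3, a small complex I subunit, was at 19057, 22463 and 33901 normalized counts in Csf1r_het, 21022, 5649 and 67430 in Csf2het, 8231 and 1836 in Dhet, and 10767, 92952 and 17663 in WT. Its highest and lowest libraries (WT 2 and Dhet 2) differed 50.6-fold, against 4.35-fold to 7.52-fold for the other 12 genes. Both Dhet libraries lay below every WT and every Csf1r_het library (log2 fold change -2.74, SE 1.01, adjusted p = 0.378 against WT and -2.65, SE 1.01, adjusted p = 0.448 against Csf1r_het). mt-Atp8, a small membrane subunit of ATP synthase, was at 11821, 35827 and 19471 in Csf1r_het, 35952, 15675 and 36571 in Csf2het, 25525 and 15973 in Dhet, and 6379, 10902 and 10216 in WT. It was the one mitochondrial gene for which every heterozygous library exceeded every WT library (log2 fold changes 1.18, SE 0.47, adjusted p = 0.241 in Csf1r_het, 1.62, SE 0.47, adjusted p = 0.0805 in Csf2het and 1.18, SE 0.52, adjusted p = 0.479 in Dhet).

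mt-Atp8 shares its last 43 bases with the start of mt-Atp6, which takes 21.1% of the gene, so reads within them fit both genes. The shared stretch is shown because it limits how far the values of these genes are independent (mm10, plus strand, capitals mark the start codon of mt-Atp6).
mt-Atp8 and mt-Atp6, chrM:7927-7969: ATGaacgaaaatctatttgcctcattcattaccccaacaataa
The genes mt-Nd4l and mt-Nd4 share 7 bases, and mt-Atp6 and mt-Co3 share 1.

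The assembly factors of complex I, which put the complex together and are not part of it, had 0 of 9 genes called against WT in any group. Their median log2 fold change against WT was 0.25 in Csf1r_het, 0.33 in Csf2het and 0.27 in Dhet. Ndufaf6 had the highest value in each, at 515, 773 and 440 normalized counts in Csf1r_het, 684, 300 and 567 in Csf2het, 362 and 519 in Dhet, and 117, 99.0 and 365 in WT. The Csf1r_het libraries exceeded all WT libraries, and the other groups overlapped with WT 3 (log2 fold changes 1.78, SE 0.55, adjusted p = 0.137 in Csf1r_het, 1.59, SE 0.55, adjusted p = 0.142 in Csf2het and 1.42, SE 0.61, adjusted p = 0.468 in Dhet). The lowest values were those of Ndufaf1 in Csf1r_het (-0.22, SE 0.47), the methyltransferase Ndufaf7 in Csf2het (-0.22, SE 0.41) and Ndufaf3 in Dhet (-1.03, SE 0.60, adjusted p = 0.581).

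Among lists of genes that serve the respiratory chain, 2 genes passed the test, and neither is a subunit of a complex. Coq7, a hydroxylase of coenzyme Q synthesis, was at 2602, 1655 and 2136 normalized counts in Csf1r_het, 1521, 1364 and 1309 in Csf2het, 713 and 887 in Dhet, and 591, 631 and 688 in WT. The 6 single-heterozygote libraries lay above all Dhet libraries, and these above all WT libraries. Coq7 rose in Csf1r_het (log2 fold change 1.72, SE 0.28, adjusted p = 0.0179) and in Csf2het (1.13, SE 0.28, adjusted p = 0.0462). The Csf1r_het call was lost without Csf1r_het 1, Csf1r_het 3 or WT 1 (adjusted p from 0.0852 to 0.115), with only the libraries of the compared groups (0.128), with 21-month libraries (0.466) and with a replicate block (0.0694). The Csf2het call was lost when any library other than Csf1r_het 2 was left out (0.0511 to 0.174), with edgeR (0.0508), with equal totals (0.0548), with the compared groups alone (0.0797), with 21-month libraries (0.0784), with a replicate block (0.108) and with the marker covariate (0.127). Its interaction was -2.53 (SE 0.43, adjusted p = 0.0148), and the call was lost without Dhet 1 (0.0705), with 21-month libraries (0.136) and with a replicate block (0.0619). Mrps6, a protein of the small mitochondrial ribosomal subunit, was at 4043, 3072 and 3630 in Csf1r_het, 3270, 3467 and 3070 in Csf2het, 1395 and 1801 in Dhet, and 806, 468 and 1116 in WT, in the same order of groups. Mrps6 rose in Csf1r_het (2.25, SE 0.32, adjusted p = 0.0109) and in Csf2het (2.12, SE 0.32, adjusted p = 0.00348). The Csf1r_het call was lost without Csf1r_het 1, Csf1r_het 3 or WT 1 (adjusted p from 0.0522 to 0.0797), with the compared groups alone (0.11) and with 21-month libraries (0.466), and the Csf2het call in none of the alternatives run. The interaction of Mrps6 was -3.29 (SE 0.49, adjusted p = 0.00874), and the call was lost without Dhet 1 (0.0509), with 21-month libraries (0.136) and with a replicate block (0.0519). Coq7 was 1 of 14 genes tested in its list and Mrps6 1 of 78 mitochondrial ribosomal proteins. Of all genes tested, 1.32% were called in Csf1r_het, 3.65% in Csf2het and 1.85% in the interaction. Of the 78, 62 were positive in Csf1r_het (44.4% of all genes), 50 in Csf2het (48.8%) and 30 in Dhet (50.9%).

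In the other lists, 0 genes were called against WT in any group (1.32%, 3.65% and 0.529% of genes tested in Csf1r_het, Csf2het and Dhet). These lists held 39 assembly factors of complexes II to V, 19 genes of the TCA cycle, 23 of mitochondrial DNA and RNA maintenance, 13 regulators of mitochondrial biogenesis and 8 carriers. Among the assembly factors, the lowest adjusted p-values were those of the copper chaperone Sco2 (1.76, SE 0.56, in Csf1r_het and Csf2het, adjusted p = 0.157 and 0.114) and Sdhaf4, an assembly factor of complex II (1.28, SE 0.42, and 1.11, SE 0.42, adjusted p = 0.166 and 0.184). The heart and muscle ADP/ATP carrier Slc25a4 differed by 0.85 (SE 0.33, adjusted p = 0.24) in Csf1r_het and 1.10 (SE 0.33, adjusted p = 0.0963) in Csf2het, and its relative Slc25a5 by 0.53 (SE 0.30) in Csf1r_het. Of the regulators, the nuclear receptor Esrra averaged 185 ± 45.8 normalized counts in Csf1r_het and 452 ± 129 in WT (SD, n = 3 each, log2 fold change -1.27, SE 0.47, adjusted p = 0.208), and the lysosomal regulator Tfeb differed by -0.98 and -1.16 (SE 0.43) in Csf1r_het and Csf2het. In the TCA cycle, Dlst (-0.85, SE 0.35) and Pdhb (0.65, SE 0.32) came first in Csf1r_het, and Idh3g (-0.80, SE 0.28) and Pdha1 (-0.88, SE 0.36) in Csf2het. For mitochondrial DNA and RNA, these were Tefm (1.19, SE 0.51) and Lrpprc (-0.94, SE 0.42) in Csf1r_het, and Mgme1 (0.94, SE 0.53) and Lrpprc (-0.66, SE 0.42) in Csf2het. In Csf2het, the outer membrane channel Vdac2 differed by 0.47 (SE 0.24) and the mitochondrial deacylase Sirt5 by 0.81 (SE 0.47), without passing the test. In Dhet, the genes with the lowest p of each list all had adjusted p-values above the threshold. They were the haem synthesis factor Cox10 (-1.18, SE 0.56) and Sco2 (0.98, SE 0.63) of the assembly factors, Idh3g (-0.79, SE 0.31) and Suclg2 (0.86, SE 0.41) of the TCA cycle, and Coq4 (1.36, SE 0.56) and Pdss1 (1.85, SE 1.09) of coenzyme Q synthesis. Of the mitochondrial ribosomal proteins they were Mrps6 (1.08, SE 0.36) and Mrps24 (-1.16, SE 0.51), and of DNA and RNA maintenance Tfb2m (0.94, SE 0.48) and Top1mt (-3.60, SE 2.04). Of the regulators they were Esrrg (-2.25, SE 1.07) and Prkaa1 (-0.87, SE 0.50), and of the carriers Slc25a14 (-2.49, SE 1.54) and Slc25a4 (0.42, SE 0.37).

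Transcript length ran with the differences between Dhet and the single heterozygotes. Lengths were those of the shortest best-supported principal transcript in GENCODE. The 30 shortest nuclear members (360 to 645 bases) had a median log2 fold change of -1.19 against Csf1r_het and -1.10 against Csf2het. The 29 of middle length (659 to 1110 bases) were at -1.01 and -0.82, and the 30 longest (1142 to 3632 bases) at -0.22 and -0.19. Other protein-coding genes in the same length ranges were at -0.99, -0.70 and 0.23 against Csf1r_het and at -0.69, -0.43 and 0.12 against Csf2het. Across the 89 nuclear members, which share libraries and are not independent, Spearman's rho between length and log2 fold change was 0.71 against Csf1r_het and 0.75 against Csf2het, and 0.18 and 0.10 across 11388 other protein-coding genes. For Dhet against WT it was 0.59 across members (-0.05 across other genes), for the interaction 0.62 (0.19), and for Csf1r_het and Csf2het against WT -0.28 and -0.28 (-0.21 and -0.13). Taken per library across the nuclear members, rho with length was 0.67 in WT 1, -0.635 in WT 2 and 0.61 in WT 3. It was 0.65 and 0.64 in Dhet, 0.039, -0.42 and -0.56 in Csf1r_het, and -0.088, 0.091 and -0.55 in Csf2het. Across other protein-coding genes it ran from -0.37 (Csf1r_het 1) to 0.17 (WT 1). The calls against WT without WT 2 thus compared libraries that differed in this rho. Length and subunit role were not separated in these values. The part of RNA quality or library preparation in this was not tested.

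**Figure D5:**
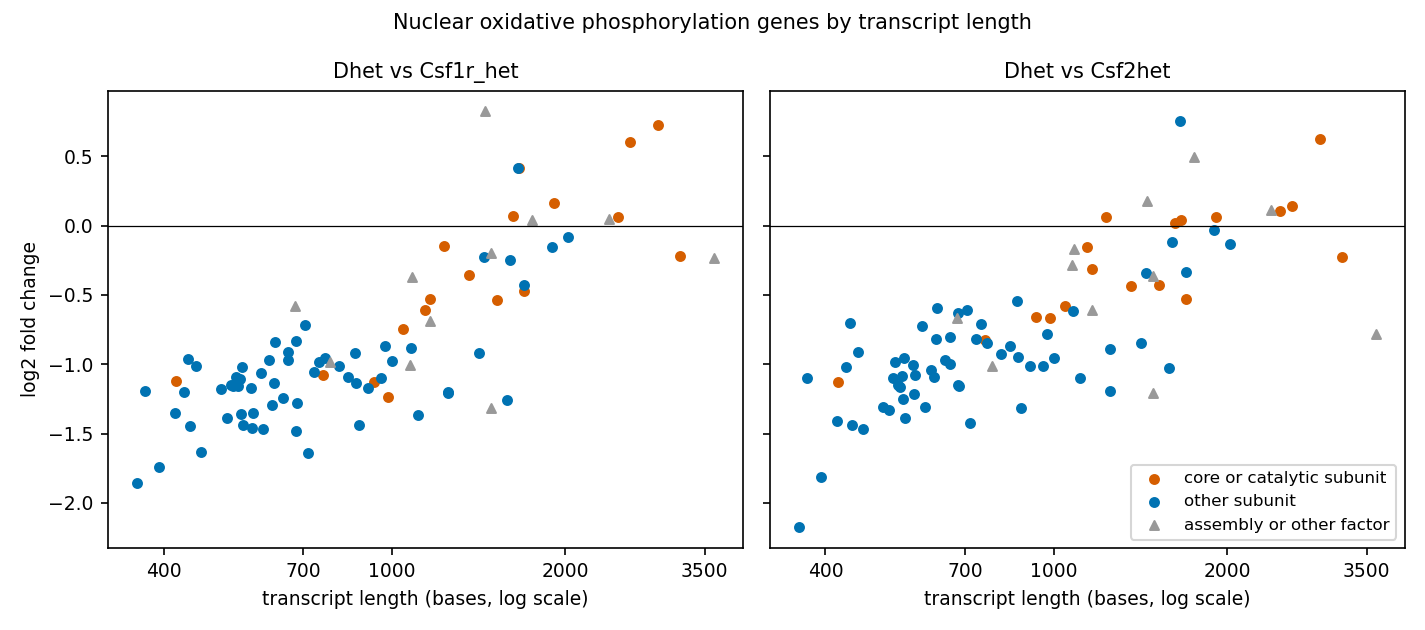
Log2 fold change of Dhet against Csf1r_het (left) and against Csf2het (right) for each of the 89 nuclear members by transcript length in bases (log axis), with core or catalytic subunits, other subunits and assembly or other factors marked. Short members lie lowest, with Cox8b (360 bases) at -1.86 and -2.17, while members over 1142 bases lie around medians of -0.22 and -0.19.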

How the data were processed

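RNA of sorted Tmem119+ microglia (RNeasy Plus Micro Kit, per the labels' protocols) was sequenced in 11 libraries. The authors used kallisto 0.43.1, build mm10 and DESeq2 (version not given), per the submitters' processing notes. The deposited values are a signal per gene, counts divided by a size factor of each library. 100% of values were whole reads within 0.02, and these recovered reads were given to edgeR and DESeq2 as alternatives. The samples, groups and 13223 tested genes (mean of at least 10; 1516 left out) entered 1 limma fit of log2(value + 1) with 4 groups (7 residual and 5.9 prior degrees of freedom). Calls used Benjamini-Hochberg adjusted p under 0.05 for each of 6 contrasts and an F test. A fold change is on the log2(value + 1) scale and is understated for low genes. The test ran in limma 3.58.1 under R 4.3.3; the alternatives used DESeq2 1.42.0 and edgeR 4.0.16. The fit was tested on simulated data for Csf1r_het against WT only. Genes varied independently there with the same dispersion, so the interaction and an outlying library were not covered.

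The members, gene lists and tests were chosen with earlier results of these data known. Named genes were every mitochondrial member, the 3 nuclear subunits with the highest mean in each complex, the highest and lowest fold change in each complex and among assembly factors against WT, every member called, the isoform sets, and from each further list the called genes or those with the lowest p. Sdha, Uqcrc1 and Ndufs3, where named beyond this rule, were chosen after their values were seen. Transcript lengths came from mouse GENCODE release M21, matched for all 89 nuclear members, and promoters from RefSeq (GRCm38.p6). The alternatives were other tests, pseudocounts, filters, scalings, sets of libraries, a replicate block and each library left out in turn.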

Additional observations from a re-analysis of the deposited data

Results flagged for a closer look

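Among the members and the lists that serve the respiratory chain, 3 genes passed the test of the interaction in the limma fit over 4 groups. They were 1 of 102 members, 1 of 14 genes of electron carriers and coenzyme Q synthesis and 1 of 78 mitochondrial ribosomal proteins. In the other such lists, of 39, 19, 23, 13 and 8 genes, 0 passed. Of all genes tested, 1.85% passed. Cox8b, the muscle-type subunit VIII of cytochrome c oxidase, had an interaction of -3.60 on the log2 scale (adjusted p = 0.0269). Coq7, of coenzyme Q synthesis, had -2.53 (adjusted p = 0.0148), and Mrps6, of the mitochondrial ribosome, had -3.29 (adjusted p = 0.00874). In each gene all 6 single-heterozygote libraries lay above both Dhet libraries and all 3 WT libraries. Ttr was split in the same way (730110 to 1409440 normalized counts, against 226138 to 627562 in Dhet and WT). The 3 genes were picked by the interaction in these same libraries, so the order of the libraries is not further support. The share of all genes with this order is not given here. In the same interaction, 5 of 8 monocyte markers and 1 of 8 choroid plexus markers were called. The part of these cell types in the 3 genes was not tested further. All 3 calls were lost without Dhet 1, with 21-month libraries alone (adjusted p = 0.201, 0.136 and 0.136) and with a replicate block (0.0519, 0.0619 and 0.0519), and 2 Dhet libraries carry this comparison.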

How the results depend on the processing

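No called result changed direction in the alternatives run. Of the recomputed counts of calls and the nuclear and mitochondrial medians, 404 stayed close to the values in the report and 144 moved. Of the medians by complex, 21 moved, and of the recomputed tests of Cox8b, Coq7 and Mrps6, 42 lost a call. The Dhet medians of the nuclear members and of complexes I, III, IV and V, which rest on no call, changed sign without WT 2. The cause of the changes below was not tested. With edgeR, all-gene calls were 100 in Csf1r_het and 26 in Dhet against WT and 2 in Dhet against Csf1r_het, members called in the interaction were 0, and the complex III median in Dhet was -0.48. With DESeq2, members called were 1, 2 and 1 against WT (Csf1r_het, Csf2het, Dhet), 1 for Dhet against Csf2het, 4 in the interaction and 3 in the F test. All-gene calls with DESeq2 were 828, 1238 and 361 against WT, 118 and 179 for Dhet against Csf1r_het and Csf2het, 995 in the interaction and 1129 in the F test, and the complex III median in Dhet was -0.46. With pseudocount 10, all-gene calls of Dhet against Csf1r_het and Csf2het were 3 and 6, and 2 members were called in the interaction, as with a mean of at least 50 and with libraries centred on their median (2 each). With pseudocount 0.1, Dhet against Csf1r_het gave 0 genes.

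With equal totals, all-gene calls against WT were 28, 320 and 29 in Csf1r_het, Csf2het and Dhet, 129 in the interaction and 123 in the F test, with 1 member called in Csf2het, and Coq7 there lost its call (adjusted p = 0.0548). With the libraries of the compared groups alone, all-gene calls were 0, 259 and 0 against WT and 0 for Dhet against either single heterozygote. With 21-month libraries alone they were 0, 250 and 132 against WT, 0 and 53 for Dhet against Csf1r_het and Csf2het, 0 in the interaction (0 members) and 67 in the F test, and the mitochondrial minus nuclear median in Dhet was 1.74. With the choroid plexus marker level as a covariate, added after seeing the data, members called were 1 in Csf1r_het, 2 in Csf2het, 5 and 1 for Dhet against Csf1r_het and Csf2het, 33 in the interaction and 1 in the F test. All-gene calls were then 336 in Csf1r_het, 109 in Dhet, 180 and 58 for Dhet against the single heterozygotes and 760 in the interaction. Medians against WT were 1.23 (nuclear), 1.59 (mitochondrial), 1.25 (complex I) and 0.28 (complex II) in Csf1r_het, and 1.06 (nuclear), 2.05 (mitochondrial) and 1.52 (complex IV) in Csf2het.

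Without WT 2 and Csf1r_het 2, also added after seeing the data, members called were 48, 41 and 0 against WT, 2 for Dhet against Csf2het, 61 in the interaction and 42 in the F test. All-gene calls were 570 and 944 in Csf1r_het and Csf2het, 8 and 63 for Dhet against them, 1292 in the interaction and 553 in the F test. Medians in Csf1r_het were 1.28 (nuclear), 1.27 (complex I), 0.28 (complex II), 0.96 (complex III) and 1.42 (complex V), in Csf2het 1.02 (nuclear), 1.51 (complex IV) and 0.91 (complex V), and in Dhet 0.22 (complex III) and 0.21 (complex V).

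Leaving out each library in turn, members called ranged from 0 to 44 in Csf1r_het, 0 to 36 in Csf2het, 0 to 57 in the interaction and 0 to 39 in the F test, each highest without WT 2. All-gene calls ranged from 0 to 439 in Csf1r_het, 172 to 676 in Csf2het, 2 to 173 in Dhet, 0 to 121 and 0 to 85 for Dhet against Csf1r_het and Csf2het, 47 to 896 in the interaction and 34 to 388 in the F test. Nuclear medians ranged from 0.20 to 1.21, 0.066 to 1.02 and -0.82 to 0.16 in Csf1r_het, Csf2het and Dhet, mitochondrial ones from 0.42 to 1.14, 0.84 to 1.68 and -0.43 to 1.19, and their difference from -0.28 to 0.59, 0.39 to 1.17 and -0.24 to 1.74. In the same group order, complex I ranged from 0.11 to 1.22, 0.03 to 1.05 and -0.87 to 0.15, complex II from 0.48 to 0.89, 0.22 to 0.63 and 0.08 to 0.58, complex III from 0.45 to 0.90, 0.37 to 0.81 and -0.35 to 0.22, complex IV from 0.34 to 1.51, 0.23 to 1.51 and -1.03 to 0.26, and complex V from 0.17 to 1.13, -0.03 to 0.91 and -0.85 to 0.21. Where a group kept 1 library, it was assumed to vary like the others.

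Same-numbered libraries did not deviate together (15 pairs, correlation -0.21 to 0.062). With so few libraries a group, these correlations cannot settle whether equal numbers mark a pairing, and the labels give no batch. With a replicate block, all-gene calls were 28 in Csf1r_het, 256 in Csf2het, 0 and 0 for Dhet against Csf1r_het and Csf2het, 14 in the interaction and 95 in the F test, and 0 members were called in the interaction (Cox8b adjusted p = 0.0519). All members had a mean of at least 10 normalized counts, and what depth and the number of libraries limit among them was not tested.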
